A study of Mus musculus with 8 samples.

Results

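Sox6, Ndnf, Fgf1 and Rab3c are genes that are richer in dopaminergic neurons of the substantia nigra than in those of the neighbouring ventral tegmental area. They were picked by name from the deposited count table, which holds 21761 genes, and all 4 were found and tested. The study purified ribosome-bound RNA from midbrain dopaminergic neurons of C57BL/6 mice by translating ribosome affinity purification. The MPTP group (4 libraries) had received 1 intraperitoneal dose of MPTP-HCl a day for 5 days, at 30 mg/kg counted as free base. The saline group (4 libraries) had received saline on the same schedule, and in both groups 4 days passed between the last injection and collection. The labels give no age, name neither the ribosome transgene nor its promoter, and do not say whether a library came from 1 animal or from a pool. The shared protocol covers nigral, tegmental and combined dissections without saying which applies here. The name given to the deposited counts holds the letters SN, which stand for substantia nigra.

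MPTP is turned in the brain into a mitochondrial poison that the dopamine transporter carries into dopaminergic neurons, and nigral neurons are more sensitive to it than tegmental ones. Sox6 is a transcription factor of the SoxD family, which has no activation domain of its own and marks the ventral nigral lineage from its progenitors onwards. Ndnf is a secreted glycoprotein with fibronectin type III domains, Fgf1 is acidic fibroblast growth factor, which leaves cells without a classical signal peptide, and Rab3c is a small GTPase of synaptic vesicles. The sample labels name no region, and only the name of the deposited counts points to the nigra. Without tegmental libraries to compare, the regional label of these genes could not be checked here and is taken as background. The 4 were proposed with the contrast of MPTP and saline in view, so their differences below are descriptions without a test.

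All are protein-coding genes, and positions on GRCm38 are from GENCODE vM21. Sox6 lies on chromosome 7 (115470872 to 116038796, minus strand), Ndnf on chromosome 6 (65671590 to 65712326, plus strand) and Rab3c on chromosome 13 (110054187 to 110280996, minus strand). No annotated exon of another gene overlapped the exons of any of them. Of all stretches of 50 bases in their transcripts, none of those of Sox6 or Fgf1, 0.0397% of those of Ndnf and 0.587% of those of Rab3c also occurred in a transcript of another gene, on either strand. Reads of these genes therefore had few other places to map to among annotated transcripts.

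The promoter windows are shown because dopaminergic neurons are specified by factors with known short motifs. Whether any motif bears on the levels of the members in MPTP was not tested. RefSeq windows (GRCm38.p6, 250 bases before to 50 after a start site) were searched for 2 of the 4 genes, 6 windows for Sox6 and 1 for Rab3c. No window of the other members was searched, so nothing can be said here about motifs near their start sites. Searched on both strands were AAAGGTCA, the response element of the dopaminergic factor NR4A2, TAATCC for PITX factors, AACAAT for SOX factors, TGANTCA for AP-1, TGACGTCA for CREB and TGTTTAC for FOXA factors. The NR4A2 element occurred in 1 of the 6 Sox6 windows (chr7:116030998-116031297, minus strand), which is printed with the match in capitals, and in 1.51% of 32851 windows of all genes. The Rab3c window (chr13:110280157-110280456, minus strand) held none of the 6 motifs. The other 5 Sox6 windows held AACAAT at 2 places in a single window and TAATCC at 1 place in another, against 10.7% and 7.06% of all windows. The AP-1, CREB and FOXA motifs, present in 7.81%, 1.79% and 3.65% of all windows, were in none of the 7. These shares are for 1 motif in 1 window. With 6 motifs sought in 7 windows, the chance of some match was larger and was not computed.
Sox6: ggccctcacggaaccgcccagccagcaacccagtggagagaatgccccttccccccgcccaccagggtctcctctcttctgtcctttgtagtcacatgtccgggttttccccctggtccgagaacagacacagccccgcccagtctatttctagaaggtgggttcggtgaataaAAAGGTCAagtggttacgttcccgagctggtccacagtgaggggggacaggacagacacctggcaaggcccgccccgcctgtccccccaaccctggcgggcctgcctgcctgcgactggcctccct
Rab3c: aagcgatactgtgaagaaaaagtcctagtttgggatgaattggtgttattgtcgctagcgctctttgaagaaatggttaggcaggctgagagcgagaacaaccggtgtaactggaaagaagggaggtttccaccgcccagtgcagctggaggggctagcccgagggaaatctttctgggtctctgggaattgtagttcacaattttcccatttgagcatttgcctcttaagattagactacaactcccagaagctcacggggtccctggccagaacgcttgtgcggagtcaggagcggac
A match describes letters in the window and shows neither binding nor use of that start site in these neurons. GC made up 63.3% of this Sox6 window and 50.7% of the Rab3c window, beside a median of 52.7% over all windows.

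Library totals ranged from 54192354 to 78892061 counts, and the members had at least 2889 counts in every library. Counting error alone (Poisson) was at most 1.86% of a member's level in any library. The library saline 3 stood apart from the other saline libraries. Its dopaminergic marker score, the mean over 20 markers of log2 CPM (count per TMM-scaled library total), was 7.33, against 7.85 to 7.90 in the other saline libraries and 7.50 to 7.78 in MPTP. The summed level of 59 astrocyte, oligodendrocyte, microglia and vascular markers was 3138 CPM in saline 3, from 1729 to 2030.4 CPM in saline 1, 2 and 4 and from 2309 to 2607 CPM after MPTP, and no marker was at 0 in any library. Results are therefore also given without saline 3.

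Sox6 was at 44.6, 48.4, 48.7 and 49.1 CPM in MPTP libraries 1 to 4 and at 65.9, 59.7, 45.9 and 59.1 CPM in saline libraries 1 to 4. Saline 1, 2 and 4 lay above every MPTP library, whereas saline 3 lay inside the MPTP range. MPTP libraries averaged 47.7 ± 2.08 CPM and saline libraries 57.7 ± 8.45 CPM (SD, n = 4 per group), and the log2 fold change (MPTP minus saline) was -0.27 (SE 0.11), or 82.8% of the saline level. Its difference was the smallest of the members in the fit with all 8 libraries, and without saline 3 the log2 fold change was -0.37. Sox6 is also known from oligodendrocyte precursors, whose 6 markers summed to 57.7 to 77.5 CPM in MPTP, 41.0 to 53.97 CPM in saline 1, 2 and 4 and 93.0 CPM in saline 3. Their part in the Sox6 counts was not tested.

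Ndnf was at 55.1, 52.8, 55.0 and 53.4 CPM in MPTP libraries 1 to 4 and at 79.3, 94.6, 53.4 and 84.4 CPM in saline libraries 1 to 4. The MPTP libraries were nearly alike, with a coefficient of variation of 2.11%, beside a counting error (Poisson) of 1.49% to 1.64% in each library. Saline 3 again lay inside their range while the other saline libraries lay far above it. MPTP libraries averaged 54.1 ± 1.14 CPM and saline libraries 77.9 ± 17.5 CPM (SD, n = 4 per group) with a log2 fold change of -0.53 (SE 0.13), or 69.4% of the saline level. Without saline 3 the log2 fold change was -0.67.

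Fgf1 was at 136, 154, 180.1 and 188 CPM in MPTP libraries 1 to 4 and at 223, 224, 211 and 206 CPM in saline libraries 1 to 4. The gene lies on the minus strand of chromosome 18, and its start and end are not given here. Here saline 3 sat with the other saline libraries, and every MPTP library lay below every saline library. Fgf1 was the only 1 of the 4 members whose groups did not overlap, which was so for 2.14% of all tested genes in this direction and 4.19% in either. MPTP libraries averaged 165 ± 23.6 CPM and saline libraries 216 ± 8.42 CPM (SD, n = 4 per group) with log2 fold changes of -0.39 (SE 0.10) over all libraries, or 76.2% of the saline level, and -0.40 without saline 3. The spread also ran the other way from that of Sox6, Ndnf and Rab3c, with a coefficient of variation of 14.4% in MPTP and 3.90% in saline.

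Rab3c was at 1233, 1055, 1360.1 and 1205 CPM in MPTP libraries 1 to 4 and at 1972, 2478, 1276 and 1806 CPM in saline libraries 1 to 4. Saline 3 lay between MPTP 1 and MPTP 3, and the other saline libraries were all higher than any MPTP library. MPTP libraries averaged 1213 ± 125 CPM and saline libraries 1883 ± 495 CPM (SD, n = 4 per group). The log2 fold change of -0.63 (SE 0.15), or 64.4% of the saline level, was the furthest from 0 among the members, and without saline 3 it was -0.78. In bulk RNA of this kind, fewer neurons that carry these transcripts and less transcript in each neuron cannot be told apart.

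**Figure D1:**
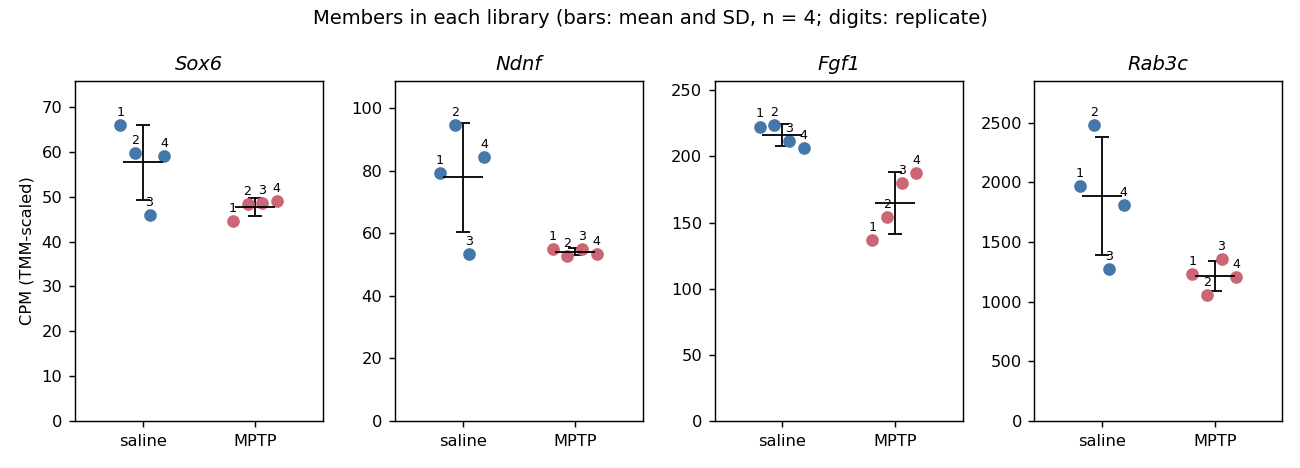
Level of each member in CPM on TMM-scaled library sizes (y axis) in the 4 saline and 4 MPTP libraries, with points for libraries, digits for the replicate number and bars for the mean and SD. Saline 3 lies among or beside the MPTP libraries for Sox6, Ndnf and Rab3c and among the saline libraries, at 211 CPM, for Fgf1.

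edgeR's quasi-likelihood test on all 15999 genes called 5 genes lower (0.0313%) and 12 higher (0.075%) in MPTP at a Benjamini-Hochberg adjusted p of 0.05, and 0 of the 4 members were among them. Without saline 3 all 4 were among the 159 genes called lower (0.983% of those tested, with 0.853% called higher), and DESeq2 on all 8 libraries had 2 of the 4 among its 28 lower genes (0.175%, with 0.156% higher). As this contrast served to choose the members, these counts are given for completeness and carry no weight as evidence. At an unadjusted p under 0.05, edgeR's test gave 4.5% of all tested genes lower and 4.28% higher, 8.78% together, which is the background for the list counts that follow.

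The members did not follow the marker content of the libraries to the same degree. With the non-neuronal marker score (the mean of the 4 list scores of astrocytes, oligodendrocytes, microglia and vascular cells) as a covariate, the log2 fold change was -0.14 for Sox6, -0.25 for Ndnf and -0.33 for Rab3c. That of Fgf1 was -0.35. With the dopaminergic marker score as a covariate, the log2 fold changes were -0.18 for Sox6, -0.36 for Ndnf, -0.36 for Fgf1 and -0.47 for Rab3c. All thus kept their sign, and Fgf1 moved least from its value without a covariate.

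**Figure D2:**
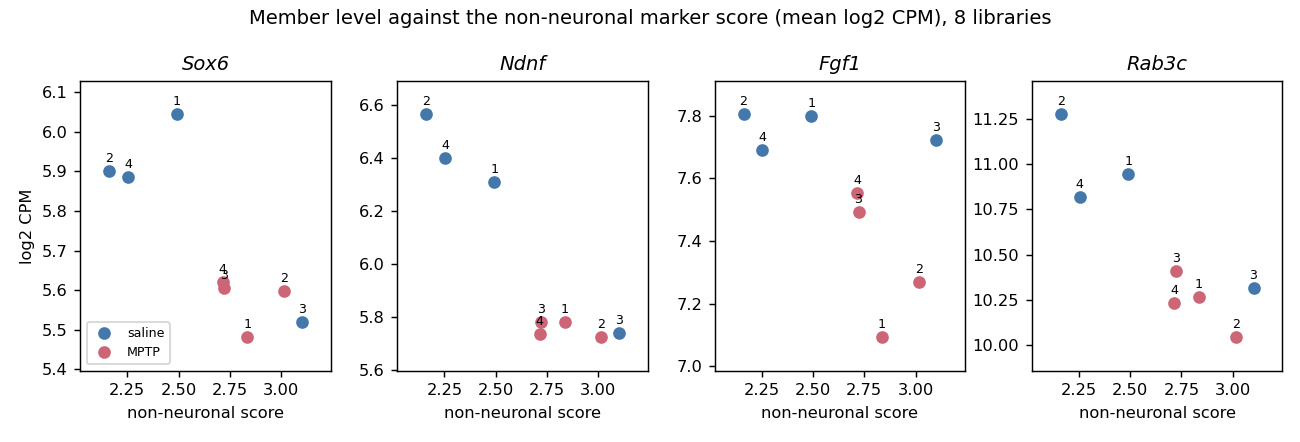
Level of each member in log2 CPM (y axis) against the non-neuronal marker score in log2 CPM (x axis) in each library, with saline in blue, MPTP in red and digits for the replicate number. For Sox6, Ndnf and Rab3c saline 3, at the right, lies near the MPTP points, whereas for Fgf1 it lies above all of them.

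Measured against the dopaminergic markers of the same library, the differences were smaller. Of these 20 markers, 17 themselves had a log2 fold change below 0 (median -0.14), so the smaller differences follow from a reference that was also lower in MPTP. The mean of log2 CPM minus the dopaminergic score was lower in MPTP by 0.14 for Sox6, 0.37 for Ndnf, 0.28 for Fgf1 and 0.48 for Rab3c. Relative to Th, which makes the precursor of dopamine, Sox6 averaged 2.14% ± 0.259 after MPTP and 2.20% ± 0.209 after saline (SD, n = 4 per group), which differ by less than the spread within either group. Rab3c averaged 54.7% ± 10.8 of Th after MPTP and 71.3% ± 13.2 after saline, Ndnf CPM 2.43% ± 0.344 and 2.95% ± 0.353, and Fgf1 CPM 7.36% ± 1.14 and 8.47% ± 2.05 (SD, n = 4 each), with ranges that overlapped for each. In saline 3, where Th itself was low, Fgf1 stood at 11.4% of Th, the highest of the 8 libraries.

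**Figure D3:**
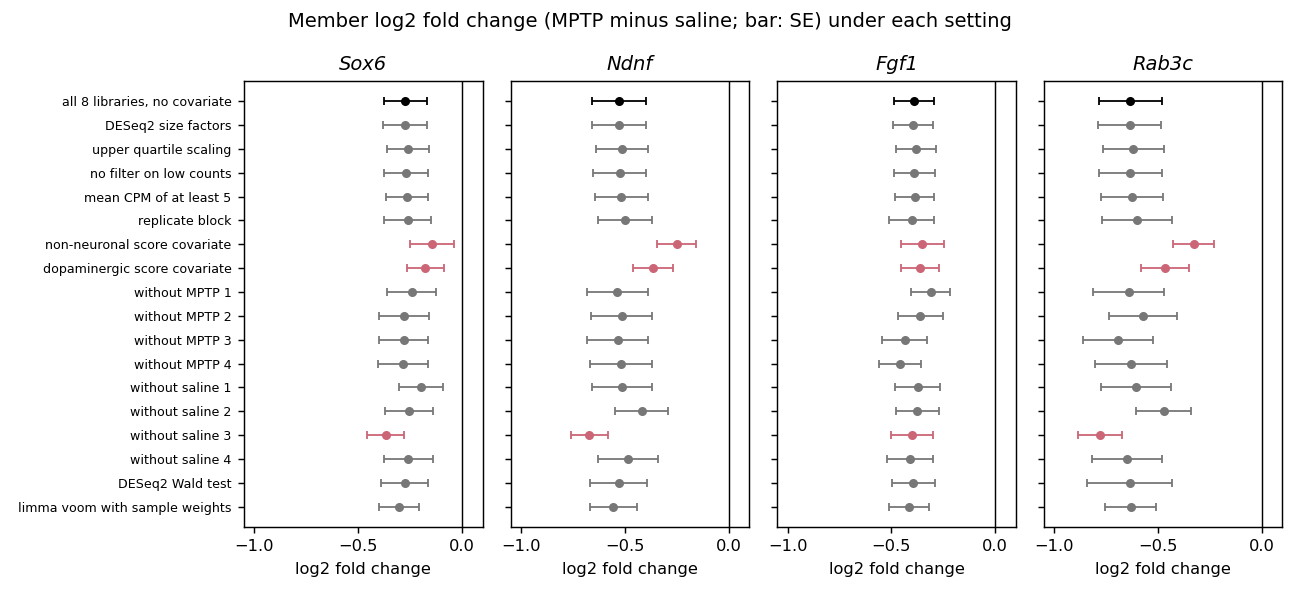
Log2 fold change of each member, MPTP minus saline (x axis, bars are SE), in the fit with all 8 libraries and no covariate (black) and under each alternative (y axis). The fits with a marker score as covariate and the fit without saline 3 are in red, and every point lies below 0.

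Levels of different genes were compared per exonic length, as CPM per kilobase of all annotated exons. In saline the order was Rab3c (156 ± 41.1), Fgf1 (39.5 ± 1.54), Ndnf (7.70 ± 1.73) and Sox6 (3.89 ± 0.569) (SD, n = 4 each). The ranges of neighbours in that order did not overlap in saline, and the order in MPTP was the same, at 101 ± 10.4, 30.1 ± 4.33, 5.35 ± 0.113 and 3.22 ± 0.140 (SD, n = 4 each). Among 15241 genes with a length, Rab3c stood at rank 229 in saline and Fgf1 at rank 1188, whereas Sox6, the transcription factor, was close to the middle at rank 7531. Th was at 1121 ± 233 CPM per kilobase in saline (SD, n = 4). Lengths include every annotated exon, so a gene that uses a short transcript is understated.

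Within the SoxD family, which binds DNA through a shared high-mobility-group box, Sox6 was the main member in the purified RNA. Of the summed level per length it held 72.0% ± 10.3 after saline and 63.8% ± 5.27 after MPTP (SD, n = 4 per group). The log2 fold change was -0.30 for Sox5 (SE 0.23, adjusted p = 0.738) and 0.58 for Sox13 (SE 0.34, adjusted p = 0.646). The groups overlapped for both, at levels per length well below that of Sox6. For Satb1, a chromatin organiser of nigral neurons, it was -0.35 (adjusted p = 0.415), and the ETS factor gene Etv5 stood at -0.20 (adjusted p = 0.597) and Bcl11a, a zinc finger factor of a dopaminergic subset, at 0.30 (adjusted p = 0.415). Bcl11a was higher in every MPTP library than in any saline library, which held for 2.04% of all tested genes. Of the 10 nigral and SoxD transcription factors other than Sox6, 5 lay below 0 and 5 above (median -0.06). None passed edgeR's test, 2 had an unadjusted p under 0.05, and DESeq2 and limma voom called 0. Without saline 3, Satb1 was called lower, at -0.44, and Nfix, named after its values were seen, higher, at 0.54.

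The Rab3 family, which links synaptic vesicles to the release site through RIM proteins, was led by Rab3a, at 366 ± 31.5 CPM per kilobase in saline (SD, n = 4). Rab3c held 28.9% ± 4.84 of the family's level per length after saline and 21.3% ± 2.49 after MPTP (SD, n = 4 per group). The highest MPTP library had 23.6% and the lowest saline library, saline 3, had 23.9%, so the groups were only just apart. How often such shares separate the groups over all genes was not computed, and the Rab3c CPM did overlap. The other family members had log2 fold changes of -0.03 for Rab3a (SE 0.09, adjusted p = 0.946), 0.21 for Rab3b (SE 0.11, adjusted p = 0.606) and 0.01 for Rab3d (SE 0.23, adjusted p = 0.992). The signs of Rab3a and Rab3d turned under several alternatives, so no direction can be given for them.

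Among 24 effectors and regulators of Rab3 and its relatives, 19 lay below 0, beside 49.9% of all tested genes, and 5 above. Their median log2 fold change was -0.06. None passed edgeR's test, 1 had an unadjusted p under 0.05, and neither DESeq2 nor limma voom called any. The gene that reached this p was Cask, a scaffold of the presynaptic membrane, at -0.18 (SE 0.08, adjusted p = 0.525), with every MPTP library below every saline library. Rab27b, a vesicle GTPase that shares effectors with Rab3, had -0.22 (adjusted p = 0.587), Sytl4, a Rab27 effector, -0.60 (adjusted p = 0.629), and Rims2, an active zone scaffold, 0.22 (adjusted p = 0.610). The groups overlapped for these 3 genes.

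**Figure D4:**
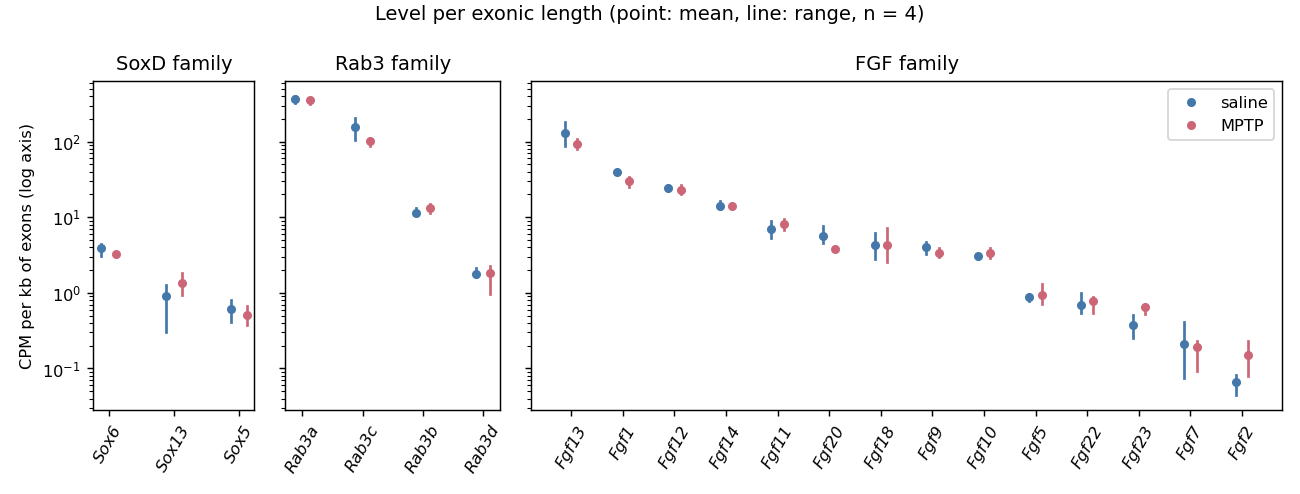
Level per exonic length in CPM per kilobase (log y axis) of the tested SoxD, Rab3 and FGF genes, with points for means and lines for the range of 4 saline (blue) or 4 MPTP (red) libraries. Sox6 leads its family, Rab3c is below Rab3a, and Fgf1 is below only Fgf13 among the FGF genes.

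Of 22 FGF genes, 14 had enough counts to be tested. Fgf1 was the highest of the secreted ones per length. Only Fgf13, which encodes an intracellular channel-binding protein, was above it, at 128 ± 39.5 CPM per kilobase in saline (SD, n = 4). Of the summed level per length of the 14, Fgf1 held 17.3% ± 2.32 after saline. After MPTP it held 16.3% ± 2.17 (SD, n = 4 per group), with overlapping ranges. Fgf20, a secreted factor also enriched in the nigra, had 3.55 to 4.08 CPM per kilobase in MPTP and 4.55 to 7.61 in saline, with no overlap, and its log2 fold change was -0.55 (SE 0.18, adjusted p = 0.415). Fgf13 had -0.46 (SE 0.17, adjusted p = 0.487) and Fgf9, a glia-activating factor, -0.27 (SE 0.15, adjusted p = 0.619). Fgf2, basic fibroblast growth factor, had 1.22 (SE 0.53, adjusted p = 0.519) at low levels, which averaged 1.03 ± 0.426 CPM after MPTP and 0.443 ± 0.107 CPM after saline (SD, n = 4 per group). Of the 13 tested FGF genes other than Fgf1, 5 lay below 0 and 8 above, beside 50.1% of all tested genes above 0. Their median was 0.04. None passed edgeR's test, 3 had an unadjusted p under 0.05, and DESeq2 and limma voom called 0. Without saline 3 only Fgf13 was called, at -0.61.

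Of 16 tested receptors and heparan sulfate coreceptors of FGFs, 10 lay above 0, beside 50.1% of all tested genes, with a median log2 fold change of 0.15. The list holds Fgfr3, which is also among the astrocyte markers, and all 16 of those markers lay above 0 (median 0.27). Their part in the receptor values was not tested. Fgfr1, the main neuronal FGF receptor gene, averaged 39.6 ± 1.83 CPM after MPTP and 31.0 ± 3.91 CPM after saline (SD, n = 4 per group). Its log2 fold change was 0.35 (SE 0.10, adjusted p = 0.392), and it was higher in every MPTP library than in any saline library. The coreceptor genes Gpc1 (0.26, adjusted p = 0.492), which also separated the groups, Sdc3 (0.25, adjusted p = 0.492) and Sdc4 (0.55, adjusted p = 0.507) followed. None of the 16 passed edgeR's test, 5 had an unadjusted p under 0.05 (all of them higher, beside 4.28% of all genes), and DESeq2 and limma voom called 0. Without saline 3 only Fgfr1 was called, with a log2 fold change of 0.44.

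Signalling and feedback genes downstream of FGF receptors had 12 of 20 above 0, beside 50.1% of all tested genes. Their median log2 fold change was 0.05. The exchange factor Sos1 had -0.25 (SE 0.09, adjusted p = 0.439) with no overlap between groups, and the docking protein Frs2 -0.20 (adjusted p = 0.557). The feedback inhibitors Spry2 and Dusp6 had 0.36 (adjusted p = 0.519) and 0.68 (adjusted p = 0.553). None of the 20 passed edgeR's test, 4 had an unadjusted p under 0.05, and DESeq2 and limma voom called 0, while without saline 3 only Dusp6 was called, at 1.11. The 5 genes of FGF1 export and intracellular binding lay on both sides of 0 (2 below, 3 above), and 0 had an unadjusted p under 0.05. None of the 5 was called by edgeR, DESeq2 or limma voom. Syt1, the calcium sensor of vesicle release, stood at -0.14, Anxa2 at 0.39, Sphk1 at -0.18 and Fibp, an FGF1-binding protein, at 0.03 (adjusted p of 0.814, 0.877, 0.951 and 0.962).

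The wider nigra-enriched list held 26 genes besides the members. All 26 had a log2 fold change below 0 in the fit with all 8 libraries, beside 49.9% of all tested genes, with a median of -0.26 for the 26. The list was put together with earlier results of these libraries known, so this count is not independent evidence of its direction. Slc6a3, Sncg and Drd2 of the 26 are also dopaminergic markers here, and Satb1 and Lmo3 are in the transcription factor list. Fgf20 is in the FGF list and Vcan among the oligodendrocyte precursor markers, so the list counts are not separate. Aldh1a7, an aldehyde dehydrogenase gene, had -0.74 (SE 0.19), Grin2c, an NMDA receptor subunit gene, -0.71 (SE 0.19), Kcnj6, the GIRK2 channel gene, -0.55 (SE 0.14) and Lix1 -0.54 (SE 0.12). Their adjusted p values were 0.321, 0.321, 0.321 and 0.249, and of these 4 only Grin2c separated the groups. Aldh1a7 resembles Aldh1a1 in sequence, so how its reads were shared is uncertain.

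None of the 26 passed edgeR's test, although 12 had an unadjusted p under 0.05 (all of them lower, beside 4.5% of all genes). DESeq2 called 4, which were Aldh1a7, Grin2c, Kcnj6 and Lix1 (beside 0.175% of all genes called lower), and limma voom 0. Without saline 3 edgeR called 9 of the 26 lower (0.983% of all genes were), and 24 of the 26 lay below 0. Adjusted for the non-neuronal score the median was -0.10 and 21 of the 26 lay below 0. The mean log2 CPM of the 26 genes was 6.01 to 6.15 in MPTP, 6.40 to 6.53 in saline 1, 2 and 4 and 6.11 in saline 3, the same placing of saline 3 as for Sox6, Ndnf and Rab3c. Sox6 was close to the median of all 30 nigra-enriched genes, which was -0.27, and the other members lay below it.

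**Figure D5:**
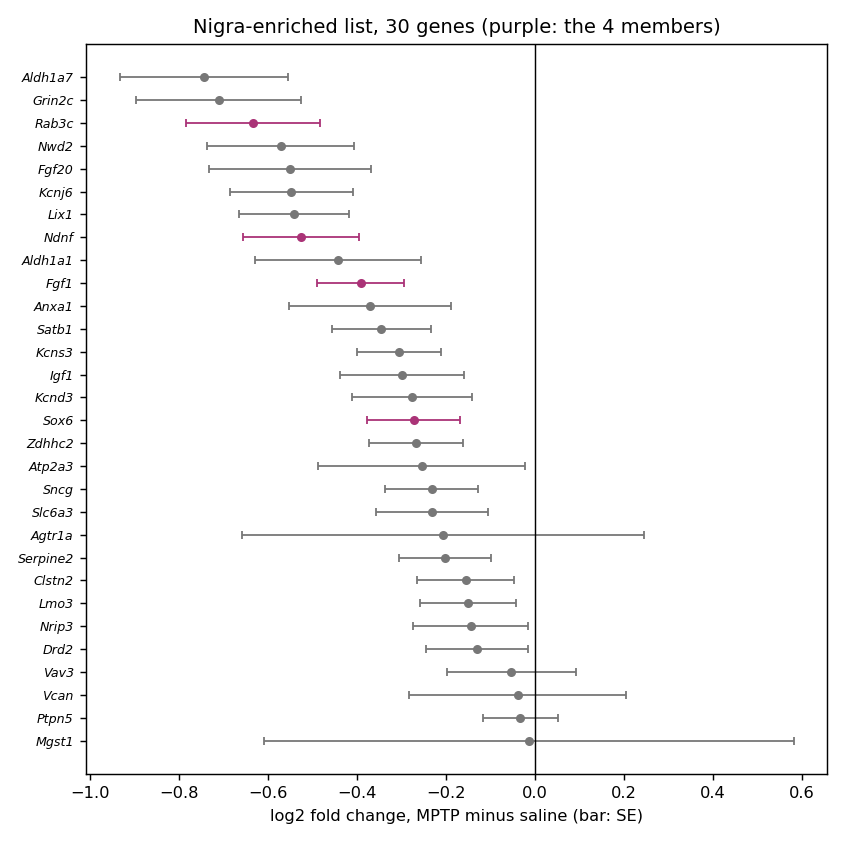
Log2 fold change, MPTP minus saline (x axis, bars are SE), of the 30 nigra-enriched genes (y axis), with the 4 members in purple and the other 26 in grey. All points lie below 0, and the members lie between Rab3c at -0.63 and Sox6 at -0.27.

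Of 20 genes enriched in the ventral tegmental area, 17 lay above 0, beside 50.1% of all tested genes, with a median of 0.30. This list too was put together with earlier results of these libraries known, so its count is not independent evidence. It shares Slc17a6 and Neurod6 with the glutamatergic markers. Efnb3 (0.48, adjusted p = 0.357), Wnt7b (0.67, adjusted p = 0.415), Cck (0.45, adjusted p = 0.415) and Vip (0.52, adjusted p = 0.483) had the smallest p values. None of the 20 passed edgeR's test, 6 had an unadjusted p under 0.05 (all of them higher, beside 4.28% of all genes), and DESeq2 and limma voom called 0, while without saline 3 only Efnb3 was called, at 0.62, and without saline 4 Cck was, at 0.65. Among the 20 markers of midbrain dopaminergic neurons, 17 lay below 0, beside 49.9% of all tested genes, with a median of -0.14. Slc6a3, Sncg and Drd2 of these are also in the nigra-enriched list. Ddc, the decarboxylase that makes dopamine, had -0.54 (SE 0.16, adjusted p = 0.396), Sncg -0.23 (adjusted p = 0.533), Slc6a3, the dopamine transporter, -0.23 (adjusted p = 0.618) and Th -0.23 (adjusted p = 0.660). None of these 20 passed edgeR's test, 2 had an unadjusted p under 0.05, and DESeq2 and limma voom called 0, while Ddc and Slc6a3 were called without saline 3.

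The members were compared with 10845 genes of at least 5 CPM on average by Pearson's r of log2 CPM over the 8 libraries. The most like Rab3c were Rab6a (0.98), Gpr26 (0.98) and Napb (0.98), of which Rab6a encodes another vesicle GTPase and Napb a membrane fusion protein. The most like Ndnf were Rgs2 (0.99), Arhgap6 (0.98) and Fam210b (0.97), and Rab3c came at rank 9 (0.96). Sox6 was most like Tmem55a (0.98), Rab11a (0.98) and Nudt11 (0.98). Fgf1 was most like Heatr1 (0.96), Tcp11l2 (0.95) and Ppip5k2 (0.94), and the other members came far down its order, at ranks 391, 463 and 715. With 8 points that share the treatment and the marker content of the libraries, such values are a description only.

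Once the group means were subtracted, r was 0.91 between Ndnf and Rab3c, 0.79 between Sox6 and Ndnf and 0.72 between Sox6 and Rab3c. Fgf1 had 0.36 with Sox6, 0.27 with Rab3c and 0.09 with Ndnf. The values of Sox6 with Ndnf and Rab3c rested on saline 3, without which they were -0.61 and -0.12. Without it, Ndnf and Rab3c had 0.76, and Fgf1 had 0.67 with Sox6, 0.34 with Rab3c and -0.011 with Ndnf. Over all 8 libraries, the genes most like Rab3c after subtraction of group means were Pappa, Aldh1a1 and Gpr26 (0.99 each). For Ndnf they were Mpped2 (0.99), Elp4 (0.98) and Aldoa (0.98). For Sox6 they were Traf5 (0.99), Dcun1d1 (0.98) and Rbm24 (0.98), and for Fgf1 Polr3f (0.98), Heatr1 (0.97) and Slitrk6 (0.97). Aldh1a1 is the aldehyde dehydrogenase that marks ventral nigral neurons. Gpr26 for Rab3c and Heatr1 for Fgf1 were among the 3 most like genes by both measures. Without saline 3, and for these same genes, the 12 values over libraries lay between 0.95 and 0.99. The 12 values after subtraction lay between 0.72 and 0.98.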

How the data were processed

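Ribosome-bound RNA of 4 MPTP and 4 saline libraries was analysed from 1 table of raw counts per gene deposited by the authors. The submitters' processing notes name mm10 and TopHat2 2.0.8. How counting was done (tool, annotation, strand) is not given in the sources used here, and the cDNA kit that the labels' protocols name does not mark strand, so reads of antisense genes cannot be told apart. The protocols pool 2 libraries for sequencing without naming the pairs, so pools could not be compared. Of the symbols, 27 turned into dates were restored by Entrez identifier from RefSeq, and 90 genes had none. edgeR 4.0.16 (R 4.3.3) with TMM and filterByExpr kept 15999 genes. The contrast was tested with edgeR's quasi-likelihood test (robust fit), with Benjamini-Hochberg adjustment over all genes tested and a threshold of 0.05. SE values come from the fold change and its F statistic (absolute value over root F). A prior count of 2 entered log2 CPM. Counts for 15930 genes were simulated with these means and library sizes, a single dispersion set in advance for all genes and no library that stood apart. On them the test recovered 28.0% of genes changed 1.5-fold and 82.0% of those changed 2-fold, and 10 of 164 calls were false. These rates hold for that setting and do not measure the power in these data. No replicate pair agreed within sampling noise. Nothing says that replicates were separate animals, so p-values measure the spread between these samples only. No molecular identifiers are named for the amplified reads, so counts are not independent molecules.

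The 4 members and all lists were chosen with earlier results of these data known. Named were the members, the other SoxD and Rab3 genes, Th, Slc6a3, up to 4 genes with the smallest p per list described, and the 3 genes most like each member. Alternatives were upper quartile scaling, DESeq2 size factors, keeping all genes or those averaging 5 CPM or more, a block for the replicate number, marker scores as covariates, leaving out each library, DESeq2 1.42.0 and limma 3.58.1 voom with sample weights. Lengths and positions are from GENCODE vM21.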

Additional observations from a re-analysis of the deposited data

Results flagged for a closer look

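In 90 groups of 4 libraries (45 values in each treatment), the highest or lowest library was set against the others by Dixon's test at 95%, and 6 stood apart, where chance flags about 1 in 20. Saline 3 stood apart for 3 of them. Its dopaminergic marker score was 7.33 (others 7.85 to 7.90) and its Slc6a3 level 11.29 log2 CPM (others 11.82 to 11.88), both the lowest, while its Rims2 level of 6.98 log2 CPM (others 6.44 to 6.52) was the highest. Sox6 in MPTP 1 was at 5.48 log2 CPM, below the 5.60 to 5.62 of the other MPTP libraries. Fgfr1 in MPTP 3 was at 5.21 log2 CPM (others 5.34 to 5.35), and the score of oligodendrocyte precursor markers in MPTP 4 was 2.66 (others 3.08 to 3.15).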

How the results depend on the processing

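The log2 fold changes of the 4 members kept their sign in all 17 alternatives. Leaving out 1 library at a time, they ranged from -0.37 to -0.20 for Sox6, -0.67 to -0.42 for Ndnf, -0.46 to -0.31 for Fgf1 and -0.78 to -0.47 for Rab3c, and the median of the 26 other nigra-enriched genes from -0.35 to -0.20. Adjusted for the non-neuronal score, Ndnf moved to -0.25, Rab3c to -0.33 and that median to -0.10. The cause was not tested. The number of genes called higher was 12, and 7 with a mean CPM of at least 5 (fewer genes tested), 25 with DESeq2 and 8 to 138 when 1 library was left out. The number called lower was 5, and 2 with the non-neuronal score, 28 with DESeq2 and 0 to 159 when 1 library was left out, with 1 without MPTP 2, 2 without MPTP 3, 3 without saline 2 or saline 4 and 0 without MPTP 4 or saline 1 (at an unadjusted p under 0.05, edgeR's test gave 527 and 434). Both highest counts came without saline 3. Rab3a (-0.03) changed sign with the non-neuronal score (0.041) and the dopaminergic score (0.026), and ranged from -0.086 to 0.024 when 1 library was left out. Rab3d (0.01) changed sign with the replicate block (-0.042), the non-neuronal score (-0.11) and the dopaminergic score (-0.020), and ranged from -0.11 to 0.22 when 1 library was left out.

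The correlations between members after subtraction of group means were also recomputed without each library, a choice made after seeing the data. They changed sign in 3 of 6 pairs, with ranges of -0.61 to 0.91 for Sox6 and Ndnf, -0.12 to 0.82 for Sox6 and Rab3c and -0.011 to 0.20 for Ndnf and Fgf1.

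No pairing by replicate number was visible: the deviations of same-numbered libraries from their group means had correlations of -0.02, -0.12, -0.03 and 0.04. Differently numbered libraries had -0.07 to 0.09. Whether same-numbered libraries were handled together cannot be told from these values. With the replicate number as a block, the log2 fold changes were -0.26 for Sox6, -0.50 for Ndnf, -0.40 for Fgf1 and -0.60 for Rab3c, and 10 genes were called higher and 4 lower. Counting error came nearest to the spread between libraries in MPTP, for Ndnf (at most 1.64% against a CV of 2.11%) and Sox6 (at most 1.74% against 4.36%), and 4 against 4 libraries limit how small a difference can be called.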

Other observations

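Markers of neurons with other transmitters were also present in the purified RNA. The 10 GABAergic markers summed to 407 to 506 CPM in MPTP, 382 to 416 CPM in saline 1, 2 and 4 and 606 CPM in saline 3. The 4 tested glutamatergic markers summed to 83.3 to 107 CPM in MPTP, 68.8 to 88.6 CPM in saline 1, 2 and 4 and 112 CPM in saline 3. Astrocyte markers (954 to 1060.2 CPM in MPTP, 787 to 898 CPM in saline 1, 2 and 4 and 1187 CPM in saline 3) and oligodendrocyte markers (1267 to 1454 CPM, 872 to 1054 CPM and 1854 CPM) had the same order.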
